A study of Mus musculus with 9 samples.

Results

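The oxidative phosphorylation genes were followed, complex by complex, in retinal RNA of C57BL/6 mice at postnatal day 17. Members were all rows of the deposited expression table whose symbol begins with Ndufa, Ndufb, Ndufc, Ndufs, Ndufv, Sdha, Sdhb, Sdhc, Sdhd, Uqcr, Cox4i, Cox5, Cox6, Cox7, Cox8, Atp5, mt-Nd, mt-Co, mt-Cytb or mt-Atp, without Ndufaf genes and pseudogenes. This gave 103 of the 25108 entries. There were 45 for complex I, 4 for complex II, 9 for complex III, 21 for complex IV and 20 for complex V, and the prefix Sdha also brought in 4 assembly factors of complex II (Sdhaf1 to Sdhaf4). The mitochondrial genome encodes 13 of the members and the nucleus the other 90.

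The 9 libraries form 3 groups of 3: IL-19 knockout mice with oxygen-induced retinopathy (OIR KO), wild-type mice with oxygen-induced retinopathy (OIR WT) and wild-type mice in room air throughout (RA WT). In this model, pups breathe high oxygen, which halts and prunes the growing retinal vessels; after return to room air the poorly perfused retina is hypoxic and forms new vessels. A room air knockout group was not analysed here, which leaves the genotypes to be set against each other within retinopathy. Separate animals are not stated for the samples of a group, so each p-value reflects sample-to-sample spread that may be technical in part.

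Oxidative phosphorylation couples electron transport to ATP synthesis in the inner mitochondrial membrane. Complex I takes electrons from NADH and complex II from succinate, complex III passes them to cytochrome c, complex IV gives them to oxygen, and complex V uses the resulting proton gradient to make ATP. Complexes I, III, IV and V are built from both genomes, whereas all subunits of complex II are nuclear. Several subunits have isoforms used in muscle, testis or hypoxia, and retinal photoreceptors are among the cells with the highest oxygen use.

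Values are FPKM, fragments scaled by gene length and by mapped fragments, which makes levels roughly comparable between genes. Levels of short genes and of genes that share bases, such as mt-Atp8 and mt-Atp6, are less sure, since the quantifier is not stated. Changes are differences of log2(FPKM + 0.5) with their standard error (SE), tested with limma over all 15678 genes that reached 0.5 FPKM in at least 3 libraries. A gene with a Benjamini-Hochberg adjusted p under 0.05 was called. Of the 103 members, 100 passed this filter; Cox7b2, Cox8c and a further copy of Atp5o (ENSMUSG00000116933) were listed at 0 in every library. Depth is unknown. Libraries of a group correlated across genes with r from 0.974 to 0.985, and the targeted gene Il19 was listed at 0 in every library apart from RA WT 1 (0.0406 FPKM), so it does not check the genotype. Rod genes, summed over 5 markers, reached 7505 to 10740 FPKM in OIR KO, 7391 to 9244 FPKM in OIR WT and 8933 to 9573 FPKM in RA WT, so defining markers of the labelled tissue were abundant. Y-linked genes were at 0 in OIR KO 1 and RA WT 2, and summed to 32.9 to 64.4 FPKM in the other 7 libraries. The libraries of OIR KO, and those of RA WT, were thus not all repeats of 1 animal or pool. In OIR WT every library held Y-linked RNA (48.1 to 64.4 FPKM), so the groups were not balanced in it.

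Mitochondrial genes were the most abundant members. Over all 9 libraries, the mean of the 13 ran between 558 FPKM for mt-Nd3 and 7093 FPKM for mt-Co1, with a median of 1619 FPKM, whereas the 83 nuclear subunits that passed the filter had a median of 67.0 FPKM. Among nuclear subunits, the median level was 54.1 FPKM for complex I, 41.0 FPKM for complex II, 93.9 FPKM for complex III, 88.7 FPKM for complex IV and 90.8 FPKM for complex V. Atp5b, the catalytic beta subunit of the ATP synthase, was the highest nuclear subunit at 435 FPKM, Cox8a was the highest of complex IV at 340.2 FPKM, and Cox6a2, a striated-muscle isoform, was the lowest at 0.501 FPKM.

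As a share of all summed FPKM, the 13 mitochondrial genes held 8.91, 8.40 and 8.14% in OIR KO 1, 2 and 3, 6.93, 9.95 and 7.67% in OIR WT 1, 2 and 3, and 9.12, 11.7 and 6.85% in RA WT 1, 2 and 3. RA WT held both the highest and the lowest library, and the groups overlapped. The nuclear subunits held 1.97, 1.74 and 2.01% in OIR KO, 1.98, 1.88 and 1.98% in OIR WT, and 1.97, 2.07 and 2.13% in RA WT. OIR KO 2 was the lowest library for 50 of the 83 nuclear subunits, and RA WT 2 was the highest library for 40 of them and for 10 of the 13 mitochondrial genes.

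**Figure D1:**
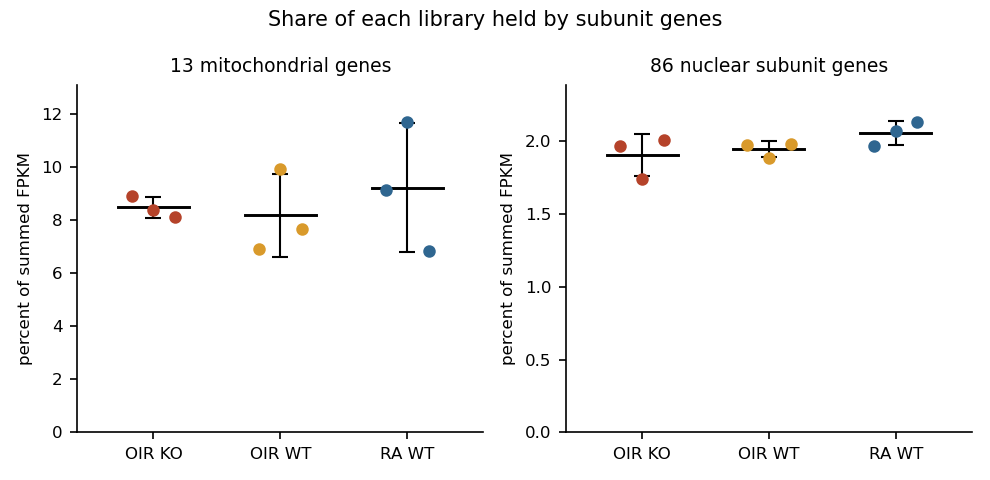
Share of all summed FPKM in each library held by the 13 mitochondrial genes (left) and by the nuclear subunit genes (right), in percent, by group. Points are libraries, long bars group means and error bars SD (n = 3). The mitochondrial share spans 6.85 to 11.7% within RA WT alone, and the nuclear share is lowest, at 1.74%, in OIR KO 2.

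OIR WT against RA WT asks how retinopathy alters the retina of wild-type mice. Of the 100 tested members, 2 rose (Ndufa4l2 and Cox4i2) and 3 fell (Cox6b2, mt-Nd2 and Uqcrfs1), in a comparison that called 8.04% of all genes as higher, 7.92% as lower and 16.0% in all. Ndufa4l2 rose 24.3-fold, while most other members sat slightly below their room air level: the median change of the members was -0.11 on the log2 scale, against 0.02 over all genes tested, and 81 of 100 lay below 0, against 47.9% of all genes. Groups did not overlap for 2 members that were higher and 17 that were lower in OIR WT; over all genes, 35.0% did not overlap, 17.8% higher and 17.2% lower. The 95% interval of the change lay within 1 log2 unit of 0 for 96 of the 100 members and within 0.5 for 69. The count of 5 was 1 without OIR WT 1 or OIR WT 3, 2 without RA WT 2 and 8 without RA WT 1; Ndufa4l2 was called in each of these fits.

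**Figure D2:**
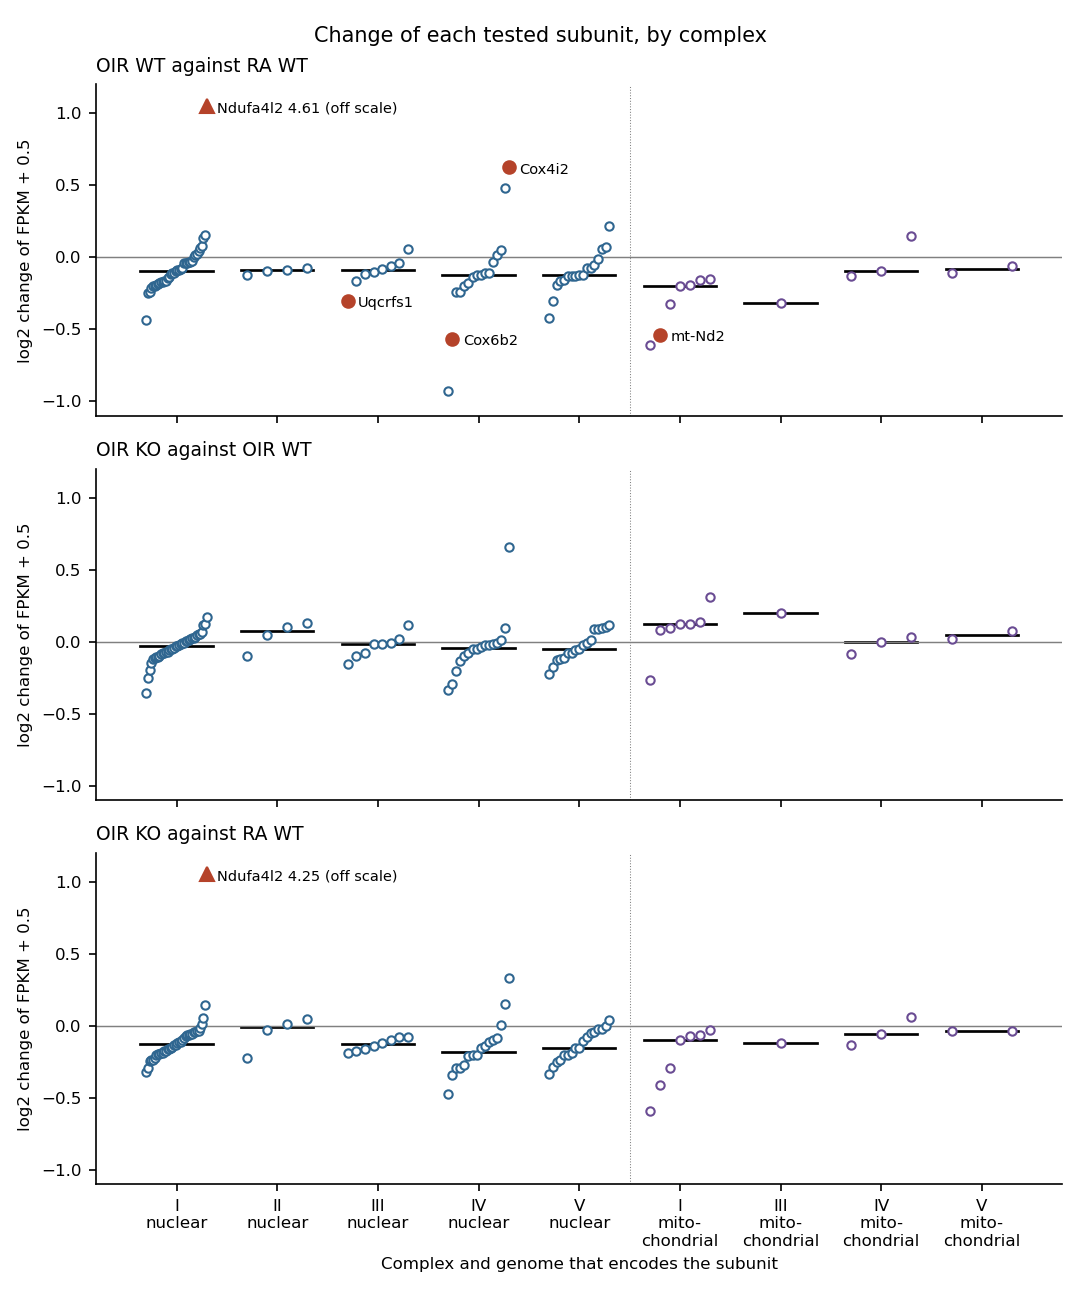
Change of each tested subunit on the log2(FPKM + 0.5) scale (vertical axis) by complex and by the genome that encodes it, in the 3 comparisons. Open circles did not pass the test, filled symbols did and are named, horizontal bars are medians, and Ndufa4l2 lies above the axis range, at 4.61 and 4.25. Most circles of the upper and lower panels lie just below 0, and those of the middle panel lie around 0.

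Ndufa4l2 (ENSMUSG00000040280, GRCm38 chromosome 10, 127514967 to 127517154, plus strand) encodes a paralog of NDUFA4 that is induced by hypoxia through HIF-1 and is known to lower complex I activity. It reached 117, 135 and 83.1 FPKM in OIR KO 1, 2 and 3, and 139, 123 and 162 FPKM in OIR WT 1, 2 and 3. In RA WT 1, 2 and 3 it was at 4.13, 5.95 and 6.00 FPKM. Every retinopathy library was above every room air library by more than 10-fold in FPKM. The log2 change was 4.61 in OIR WT against RA WT (SE 0.20, adjusted p = 1.4e-05, limma) and the call held in all 6 fits that left out a library, with log2 changes of 4.44 to 4.70. Nuclear members were counted as complex I by their Nduf symbols. Of their summed FPKM, this gene made up 5.19 ± 1.498% in OIR KO and 6.26 ± 0.582% in OIR WT, against 0.235 ± 0.0320% in RA WT (SD, n = 3 each).

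Among the 38 nuclear members counted as complex I, Ndufa4l2 was the only one called in OIR WT against RA WT. Its paralog Ndufa4, also counted here, was later placed in complex IV, so the symbol may not give the complex of Ndufa4l2. Ndufa11 had the largest fall of the 38 (log2 -0.43, SE 0.14, adjusted p = 0.0572, limma). Its groups did not overlap, but it did not pass. The median change of the 38 was -0.09, and 29 of them lay below 0. Their summed FPKM was 2173 ± 153 in OIR KO, 2250.3 ± 98.3 in OIR WT and 2268 ± 165 in RA WT; without Ndufa4l2 the sums were 2061 ± 169, 2109 ± 79.6 and 2263 ± 164 (SD, n = 3 each). Core subunits of the arm that takes electrons from NADH were among those that did not pass. Ndufv1, which binds NADH and flavin, averaged 64.1 ± 8.64 FPKM in OIR KO, 58.5 ± 2.78 FPKM in OIR WT and 69.6 ± 7.45 FPKM in RA WT. Ndufs1, an iron-sulfur subunit of the same arm, averaged 28.6 ± 2.45, 30.0 ± 1.22 and 32.6 ± 2.88 FPKM in those groups.

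In complex II, which is wholly nuclear, all 4 subunits lay below 0 in OIR WT against RA WT, with changes between -0.12 and -0.07, and none passed the test. Sdha, the flavoprotein that oxidises succinate, had the smallest p of them. It was at 78.2, 77.7 and 90.0 FPKM in OIR KO, 86.6, 90.0 and 86.6 FPKM in OIR WT, and 97.2, 87.0 and 103 FPKM in RA WT. The groups overlapped and the log2 change was -0.12 (SE 0.09, adjusted p = 0.411, limma). Sdhb, the iron-sulfur subunit, averaged 45.8 ± 3.15 FPKM in OIR KO, 41.9 ± 5.48 FPKM in OIR WT and 44.4 ± 2.88 FPKM in RA WT. None of the 4 Sdhaf assembly factors was called in any comparison.

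In complex III, Uqcrfs1 fell. It encodes the Rieske iron-sulfur protein, which hands electrons from ubiquinol towards cytochrome c1 (ENSMUSG00000038462, GRCm38 chromosome 13, 30540308 to 30545362, minus strand). The bases before its annotated start are shown because it is one of the called nuclear subunits; no letters of the NRF1-type motif described with the complex IV promoters were found there (RefSeq, GRCm38.p6, chr13:30545363-30545566, minus strand).
Uqcrfs1: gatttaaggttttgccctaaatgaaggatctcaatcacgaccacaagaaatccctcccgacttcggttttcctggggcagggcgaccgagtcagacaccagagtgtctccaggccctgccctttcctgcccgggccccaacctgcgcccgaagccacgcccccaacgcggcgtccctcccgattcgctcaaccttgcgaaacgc
Uqcrfs1 was at 55.0, 47.98 and 55.6 FPKM in OIR KO, 47.3, 47.7 and 50.8 FPKM in OIR WT, and 56.4, 64.4 and 59.7 FPKM in RA WT. Both retinopathy groups lay wholly below RA WT. The log2 change of OIR WT against RA WT was -0.30 (SE 0.09, adjusted p = 0.0448, limma), close to the threshold. The adjusted p ran between 0.0460 and 0.151 when any 1 of the 6 libraries was left out, and the call was lost in each of those fits except the one without RA WT 1. The other 7 nuclear subunits of complex III did not pass, with Uqcrc1, a core protein of the matrix side, at 118 ± 11.9 FPKM in OIR KO, 116 ± 3.86 FPKM in OIR WT and 124 ± 15.1 FPKM in RA WT.

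Complex IV held both a called rise and a called fall among nuclear subunits. Cox4i2 (ENSMUSG00000009876, GRCm38 chromosome 2, 152754173 to 152765037, plus strand), the isoform of COX4 that is known from lung and is induced by low oxygen, was at 44.8, 47.8 and 38.7 FPKM in OIR KO and 53.0, 50.2 and 58.1 FPKM in OIR WT. It was at 26.0, 42.4 and 37.5 FPKM in RA WT. All OIR WT libraries were above all RA WT libraries, and OIR KO overlapped RA WT. The log2 change was 0.63 in OIR WT against RA WT (SE 0.16, adjusted p = 0.0296, limma). The adjusted p ran between 0.0247 and 0.0977 when a library was left out, and the call was lost without OIR WT 1, OIR WT 3 or RA WT 3.

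Cox4i2 and Ndufa4l2 are both known from pericytes and vascular smooth muscle, and markers of those cells moved in the same comparison. Summed over 9 markers, they reached 82.5 to 140 FPKM in OIR KO, 103 to 153 FPKM in OIR WT and 44.1 to 58.0 FPKM in RA WT. Of the 9, 6 rose in OIR WT against RA WT and 3 in OIR KO against RA WT, and none was at 0 throughout. Those comparisons called 8.04% and 4.75% of all genes as higher. Rgs5, 1 of the 9, averaged 59.8 ± 13.4 FPKM in OIR KO, 53.4 ± 9.03 FPKM in OIR WT and 29.2 ± 4.16 FPKM in RA WT. Between the genotypes, 6 of the 9 markers were lower in OIR KO than in OIR WT and 3 were higher. Their log2 changes lay between -0.98 and 0.46, and none was called. The part of these cells in the rise of Cox4i2 and Ndufa4l2 was not tested. In bulk tissue, more cells of a type and more RNA per cell cannot be told apart.

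Cox6b2 (ENSMUSG00000051811, GRCm38 chromosome 7, 4751792 to 4753094, minus strand), the isoform of COX6B best known from testis, fell. It was at 9.19, 6.402 and 7.37 FPKM in OIR KO, 7.36, 7.21 and 6.67 FPKM in OIR WT, and 9.17, 11.7 and 11.5 FPKM in RA WT. OIR WT lay wholly below RA WT, and OIR KO 1 lay just above the lowest RA WT library. The log2 change of OIR WT against RA WT was -0.57 (SE 0.14, adjusted p = 0.0241, limma). The adjusted p ran between 0.0214 and 0.0805 when a library was left out, and the call was lost without OIR WT 1, OIR WT 3, RA WT 2 or RA WT 3.

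The bases before the start of Cox6b2 are shown beside those of its widely expressed partner Cox6b1 and of Cox6a1, since the isoforms of a subunit differed in level and since Cox6a1 holds the motif searched. Capitals mark the letters GCGCATGCG on either strand, a core of the site of NRF1, a factor known to act on nuclear respiratory genes; overlapping matches on the opposite strands merge into 1 run. Sequences are from RefSeq on GRCm38.p6, all on the minus strand, without bases inside the annotated gene.
Cox6b2 (chr7:4753095-4753344): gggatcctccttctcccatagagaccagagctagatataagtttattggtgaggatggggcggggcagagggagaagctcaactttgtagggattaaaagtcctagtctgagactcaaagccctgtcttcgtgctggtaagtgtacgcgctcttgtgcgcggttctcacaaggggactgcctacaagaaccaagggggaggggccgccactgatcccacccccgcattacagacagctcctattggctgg
Cox6b1 (chr7:30626152-30626364): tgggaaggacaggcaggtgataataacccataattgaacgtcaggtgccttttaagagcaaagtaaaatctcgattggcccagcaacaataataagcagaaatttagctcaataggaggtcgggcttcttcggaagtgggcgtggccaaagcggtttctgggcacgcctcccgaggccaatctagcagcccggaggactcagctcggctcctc
Cox6a1 (chr5:115348982-115349208): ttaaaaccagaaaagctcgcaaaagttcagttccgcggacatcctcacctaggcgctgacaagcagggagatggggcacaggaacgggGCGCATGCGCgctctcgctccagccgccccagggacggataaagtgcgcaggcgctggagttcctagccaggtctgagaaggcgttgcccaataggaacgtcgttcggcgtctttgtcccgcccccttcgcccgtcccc
In the 250 bases before the start, the letters were found in 6 of the 72 windows of the 67 nuclear subunit genes that matched the RefSeq table (8.33%), and in 1.45% of all 32851 windows of the same length. The 6 genes were Ndufa8 and Ndufa11 of complex I, Cox6a1 of complex IV, and Atp5g2, Atp5k and Atp5l of complex V. None of the 6 was called in any comparison. The windows of all genes were not matched to those of the subunits in base composition or expression, and the difference in share was not tested. Other spellings of the site were not searched. A match is a description of the letters and no evidence of binding.

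Complex V had no called member in OIR WT against RA WT. Of its 17 nuclear subunits tested, 14 lay below 0, with a median change of -0.12. Atp5k, subunit e of the membrane part, had the smallest p. It was at 49.6, 31.4 and 36.4 FPKM in OIR KO, 36.5, 33.7 and 38.5 FPKM in OIR WT, and 48.7, 45.6 and 51.8 FPKM in RA WT. OIR WT lay wholly below RA WT, and OIR KO 1 lay within the RA WT range. The log2 change of OIR WT against RA WT was -0.42 (SE 0.15, adjusted p = 0.0824, limma). The catalytic head did not pass either: Atp5a1, the alpha subunit, averaged 186 ± 14.8 FPKM in OIR KO, 201 ± 10.8 FPKM in OIR WT and 212 ± 24.5 FPKM in RA WT, and Atp5b averaged 398 ± 38.0, 432 ± 12.2 and 475 ± 69.9 FPKM in those groups.

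**Figure D3:**
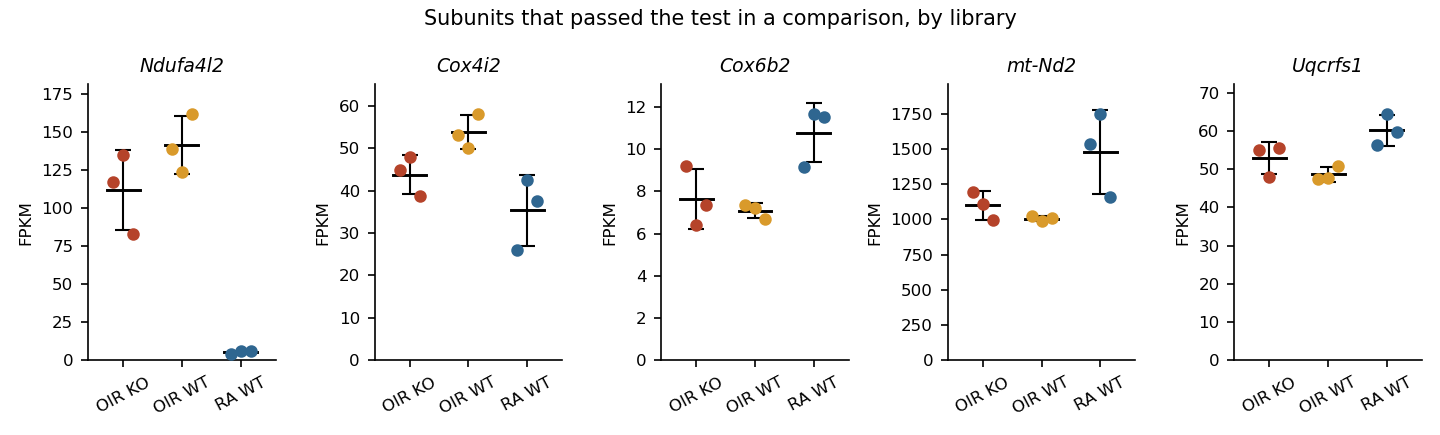
FPKM of the 5 subunits called in OIR WT against RA WT, by library and group, on linear axes from 0. Points are libraries, long bars group means and error bars SD (n = 3). Ndufa4l2 is at 4.13 to 6.00 FPKM in RA WT and at 83.1 FPKM or more in both retinopathy groups, whereas the gap is smaller for Cox4i2 (53.7 FPKM in OIR WT and 35.3 FPKM in RA WT on average), Cox6b2, Uqcrfs1 and mt-Nd2.

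Of the mitochondrial genes, 12 of 13 lay below 0 in OIR WT against RA WT, with a median change of -0.16, and mt-Nd2 was called. mt-Nd2 encodes a core membrane subunit of complex I (ENSMUSG00000064345, mitochondrial genome, 3914 to 4951). It was at 1195, 1112 and 993 FPKM in OIR KO, 1021, 988 and 1009 FPKM in OIR WT, and 1532, 1747 and 1158 FPKM in RA WT. OIR WT lay wholly below RA WT, with RA WT 3 nearest to it, and OIR KO 1 was above RA WT 3. The log2 change was -0.54 (SE 0.14, adjusted p = 0.0333, limma). The call was lost in each fit that left out a library except the one without RA WT 3, with an adjusted p between 0.0120 and 0.0973.

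mt-Nd1, the neighbour of mt-Nd2 on the mitochondrial genome, had a larger change that did not pass. It was at 2646, 2254 and 2085 FPKM in OIR KO, 1849, 1858 and 1892 FPKM in OIR WT, and 2937, 3869 and 2015 FPKM in RA WT. The 3 OIR WT libraries lay close together and wholly below the other 6. The log2 change of OIR WT against RA WT was -0.61 (SE 0.20, adjusted p = 0.0708, limma), and it was called without RA WT 3 (adjusted p = 0.0150; range over fits without a library 0.0150 to 0.180). mt-Cytb, the mitochondrial subunit of complex III, averaged 3296 ± 351 FPKM in OIR KO, 2870 ± 113 FPKM in OIR WT and 3679 ± 1038 FPKM in RA WT, with a log2 change of -0.32 for OIR WT against RA WT (SE 0.19, adjusted p = 0.292, limma). Without RA WT 3 it was called, with a log2 change of -0.56 (adjusted p = 0.0326, range over fits without a library 0.0326 to 0.662), and without RA WT 2 the change was -0.13.

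The spread between libraries was wider for mitochondrial than for nuclear members. The highest library was 1.98 times the lowest at the median of the 13 mitochondrial genes, and 1.39 times at the median of the 83 nuclear subunits. Without RA WT 2, the median change of the mitochondrial genes in OIR WT against RA WT was 0.01 in place of -0.16, and 5 of the 13 lay below 0. It was -0.36 without RA WT 3 (12 below 0), -0.35 without OIR WT 2 (13 below 0) and -0.10 without OIR WT 1 (8 below 0). For the 100 members together, the median stayed below 0 without RA WT 2, at -0.07, with 64 below 0.

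The other mitochondrial genes did not pass the test, and each group's values overlapped the other's in OIR WT against RA WT. Catalytic subunit mt-Co1 averaged 7007 ± 742 FPKM in OIR KO, 6818 ± 274 FPKM in OIR WT and 7454 ± 2016 FPKM in RA WT. mt-Co2 was the only mitochondrial gene above 0 in OIR WT against RA WT, at 3584 ± 256 FPKM in OIR KO, 3959 ± 1388 FPKM in OIR WT and 3452 ± 554 FPKM in RA WT. mt-Co3 averaged 3128 ± 178, 3234 ± 1016 and 3627 ± 1591 FPKM in those groups. For complex I, the ranges over all 9 libraries were 395 to 1176 FPKM for mt-Nd3, 1280 to 2217 FPKM for mt-Nd4, 969 to 2118 FPKM for mt-Nd4l, 827 to 1291 FPKM for mt-Nd5 and 727 to 1246 FPKM for mt-Nd6. mt-Nd6 is the only one of the 13 on the opposite strand.

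In OIR WT 2, a run of genes that lie next to each other on the mitochondrial genome was higher than in the other OIR WT libraries. From mt-Co2 to mt-Nd4, a run of 7 consecutive genes, OIR WT 2 was 1.42 to 2.25 times OIR WT 1, whereas the other 6 genes had ratios between 0.953 and 1.08. The same 7 genes were 1.31 to 1.82 times as high in OIR WT 2 as in OIR WT 3, and the other 6 were 0.963 to 1.15 times. This run was picked out after its values were seen and has no test. Between RA WT 2 and RA WT 1 the ratios of the 2 sets overlapped, at 1.21 to 2.43 for the 7 and 0.944 to 1.32 for the others.

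**Figure D4:**
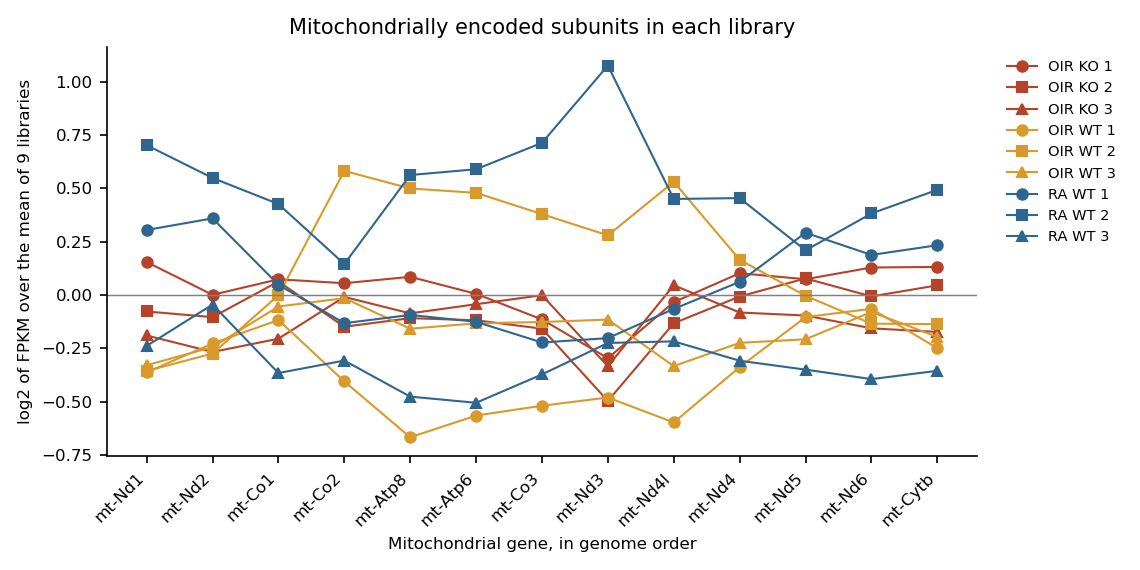
Level of the 13 mitochondrial genes in each library, as log2 of FPKM over the mean of the 9 libraries (vertical axis), with genes in genome order. Colours mark the groups and symbols the replicate numbers. RA WT 2 is highest in 10 genes, and OIR WT 2 stands above the other OIR WT libraries from mt-Co2 to mt-Nd4.

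Some mitochondrial genes share bases, so fragments there cannot be assigned to 1 gene. The longest stretch is 43 bases that end mt-Atp8 and begin mt-Atp6, both membrane subunits of complex V; it is shown because the levels of both genes rest in part on these bases (GRCm38 chrM:7927-7969). Capitals mark the start codon of mt-Atp6 and the stop codon of mt-Atp8.
mt-Atp8 and mt-Atp6: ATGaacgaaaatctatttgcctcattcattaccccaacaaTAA
mt-Atp8 averaged 3267 ± 245 FPKM in OIR KO, 3278 ± 1333 FPKM in OIR WT and 3493 ± 1305 FPKM in RA WT, and mt-Atp6 averaged 556 ± 24.0, 573 ± 211 and 600.2 ± 239 FPKM in those groups. mt-Nd4l and mt-Nd4 share 7 bases, mt-Nd5 and mt-Nd6 share 14 on opposite strands, and mt-Atp6 and mt-Co3 share 1. Whether strand was used in counting was not stated, so reads of mt-Nd5 and mt-Nd6 in the shared bases cannot be told apart. Near-identical copies also bear on members: 31 nuclear and 9 mitochondrial members have a copy of at least 95% identity over 100 bases in the annotation. Of the nuclear members, 9 have one in the table and 3 have one above 1 FPKM, and none of the mitochondrial members has one in the table. Among these, the copy of Cox5b, Gm11273, was at 10.8 to 16.8 FPKM, so the level of Cox5b is uncertain singly.

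Isoform pairs were compared as log2 ratios within a library, with exact two-sided permutation tests; 3 against 3 libraries cannot give p under 0.1, and p was adjusted over the 18 tests. Ndufa4l2 reached 75.1, 108 and 54.1% of the FPKM of Ndufa4 in OIR KO and 94.5, 86.4 and 111% in OIR WT. In RA WT it was 2.52, 3.23 and 4.02% of Ndufa4. Ndufa4, first described with complex I and later placed in complex IV, averaged 145 ± 16.9 FPKM in OIR KO, 145 ± 2.14 FPKM in OIR WT and 166 ± 17.5 FPKM in RA WT. The log2 ratio was higher by 4.79 in OIR WT than in RA WT and by 4.44 in OIR KO than in RA WT (exact permutation p = 0.1, adjusted p = 0.257 for each, n = 3).

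Cox4i2 was 14.4, 17.3 and 11.8% of Cox4i1 in OIR KO, 17.1, 16.9 and 18.5% in OIR WT, and 7.86, 12.9 and 9.39% in RA WT. Cox4i1, the widely expressed form, averaged 306 ± 27.1 FPKM in OIR KO, 307 ± 9.52 FPKM in OIR WT and 353 ± 39.96 FPKM in RA WT. The log2 ratio differed by 0.82 between OIR WT and RA WT, without overlap (exact permutation p = 0.1, adjusted p = 0.257, n = 3). Cox6b2 was 8.77, 7.48 and 6.66% of Cox6b1 in OIR KO, 6.89, 7.42 and 6.46% in OIR WT, and 8.99, 9.88 and 10.04% in RA WT. Both retinopathy groups lay wholly below RA WT for this ratio, by 0.45 for OIR WT and 0.32 for OIR KO on the log2 scale (exact permutation p = 0.1, adjusted p = 0.257 for each, n = 3). Cox6b1 itself averaged 100.3 ± 13.04 FPKM in OIR KO, 102 ± 4.95 FPKM in OIR WT and 112 ± 8.43 FPKM in RA WT.

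The isoforms best known from striated muscle were at low levels. Cox6a2 was 0.348 to 0.582 FPKM in OIR KO, 0.446 to 0.920 FPKM in OIR WT and 0.219 to 0.513 FPKM in RA WT, against 213 to 280 FPKM for Cox6a1 over all libraries. Cox7a1 was 1.09 to 2.16 FPKM in OIR KO, 1.15 to 2.78 FPKM in OIR WT and 1.79 to 2.28 FPKM in RA WT, against 52.4 to 71.2 FPKM for Cox7a2. None of the 6 tests on these 2 ratios could pass, and their exact permutation p ranged between 0.1 and 0.9. Muscle markers summed over 13 genes were 14.0 to 34.7 FPKM in OIR KO, 19.3 to 47.6 FPKM in OIR WT and 10.6 to 11.4 FPKM in RA WT, and only 5 of the 13 passed the filter. The skeletal myosin Myh4 was at 0 in every library, and Myh1, Myh2 and Myh8 stayed at or below 0.0375 FPKM. The troponin Tnnt2, which rose in OIR WT against RA WT (log2 4.01, adjusted p = 0.00755, limma), averaged 13.2 ± 11.4 FPKM in OIR KO, 22.6 ± 14.4 FPKM in OIR WT and 0.728 ± 0.120 FPKM in RA WT. The skeletal actin Acta1 fell in OIR WT against RA WT (log2 -0.75, adjusted p = 0.0254, limma), so of the 5 tested muscle markers 1 rose and 1 fell. Of all genes, 8.04% were called as higher and 7.92% as lower in that comparison. Cox7a2l, which takes part in joining complexes III and IV into supercomplexes, averaged 90.1 ± 5.75 FPKM in OIR KO, 96.6 ± 2.18 FPKM in OIR WT and 105 ± 15.1 FPKM in RA WT and was not called.

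**Figure D5:**
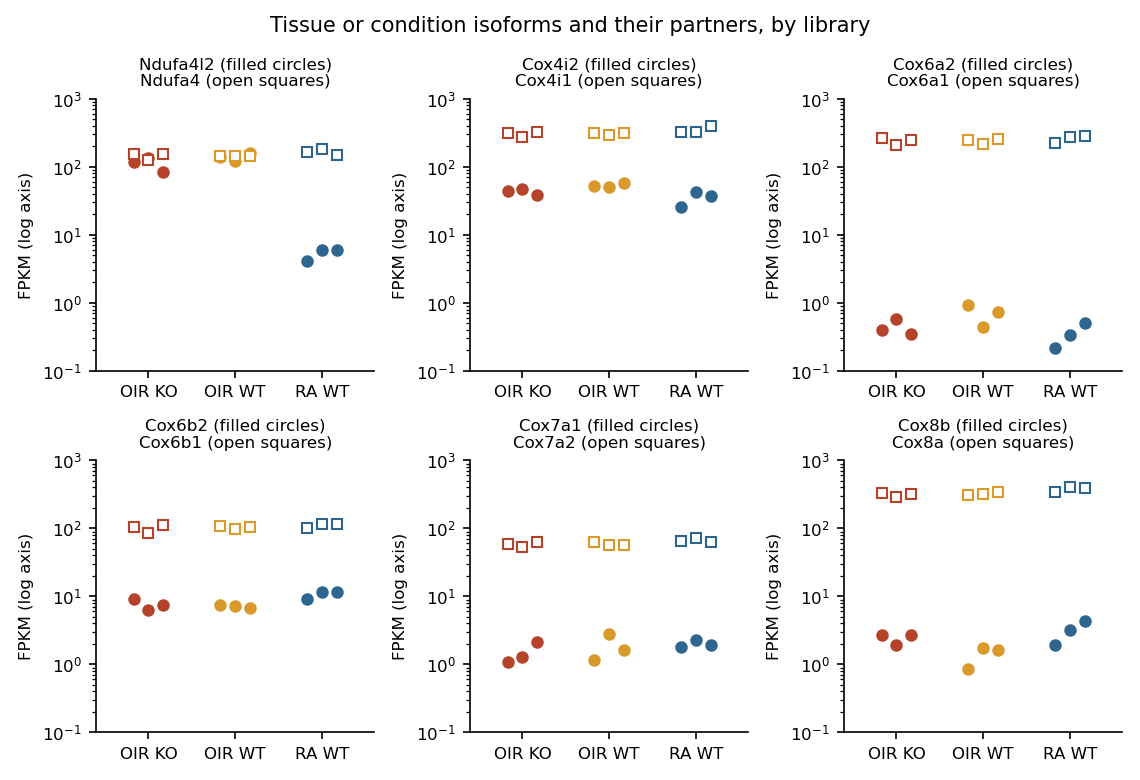
FPKM (log axis) of 6 isoform pairs in each library, by group, with the isoform of restricted use as filled circles and its partner as open squares. In both retinopathy groups the circles of Ndufa4l2 lie on or near the squares of Ndufa4, whereas in RA WT they lie at 2.52 to 4.02% of them; in the other 5 pairs the squares stay well above the circles in every library.

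OIR KO against OIR WT addresses what the loss of IL-19 changes in the retina with retinopathy. None of the 100 tested members was called with limma, against 0.134% of all genes (0.0574% higher and 0.0765% lower). An unadjusted p under 0.05 was found for 2 of the 100 members, against 1554 of the 15678 genes tested. The median change of the members was -0.02, against a median of 0.00 over all genes. Of the 100 members, 60 lay below 0, against 50.7% of all genes. Groups did not overlap for 2 members that were higher and 4 that were lower in OIR KO, against 17.7% of all genes (9.73% higher and 7.98% lower). The 95% interval lay within 1 log2 unit of 0 for 98 members and within 0.5 for 83. The direction of the median rested on 1 library: without OIR KO 2 it was 0.04, with 39 of 100 below 0. OIR KO 2 also differed from OIR KO 1 and OIR KO 3 over all tested genes and in markers of other cells. On the leading principal component, with 47.2% of the variance, OIR KO 1, 2 and 3 were at -7.96, -32.5 and 3.3. OIR WT 1, 2 and 3 were at -28.9, -11.7 and -31.3, so OIR KO 2 lay nearest to OIR WT 1 and OIR WT 3. Erythrocyte genes summed to 1070 FPKM in OIR KO 2, against 112 and 113 FPKM in OIR KO 1 and OIR KO 3. In OIR WT they summed to 512 to 1431 FPKM, so OIR KO 2 lay within the OIR WT range. Ganglion cell markers summed to 72.7 FPKM in OIR KO 2, against 124 and 126 FPKM in OIR KO 1 and OIR KO 3. In OIR WT they summed to 110 to 123 FPKM. Rod markers were at 10740, 7505 and 8763 FPKM in OIR KO 1, 2 and 3, and at 7391 to 9244 FPKM in OIR WT. The part of other cells in the low values of OIR KO 2 for the members was not tested.

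The 2 members with an unadjusted p under 0.05 were Ndufb3 and Cox8b. Ndufb3, an accessory subunit in the membrane arm of complex I, was at 47.7, 41.0 and 52.4 FPKM in OIR KO and 52.7, 58.8 and 55.9 FPKM in OIR WT. The groups did not overlap, though OIR KO 3 was close to OIR WT 1, and the log2 change was -0.25 (SE 0.10, adjusted p = 0.459, limma). Cox8b, a muscle isoform of COX8, was at 2.72, 1.90 and 2.73 FPKM in OIR KO and 0.842, 1.74 and 1.63 FPKM in OIR WT. In RA WT it was at 1.91, 3.24 and 4.38 FPKM. OIR WT lay wholly below RA WT, with the largest fall of all tested members (log2 -0.93, SE 0.28, adjusted p = 0.0508, limma), which did not pass. OIR KO lay wholly above OIR WT and overlapped RA WT. The log2 change of OIR KO against OIR WT was 0.65 (SE 0.28, adjusted p = 0.483, limma). As a share of Cox8a, Cox8b was 0.817, 0.658 and 0.863% in OIR KO, 0.271, 0.550 and 0.471% in OIR WT, and 0.549, 0.800 and 1.099% in RA WT.

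The members with the smallest p in the other complexes were likewise not called in OIR KO against OIR WT. Sdhb of complex II had a log2 change of 0.13 (SE 0.11, adjusted p = 0.746, limma), and Uqcrfs1 of complex III one of 0.12 (SE 0.09, adjusted p = 0.721, limma). Atp5j2, subunit f of complex V, was at 61.8, 58.2 and 69.7 FPKM in OIR KO and 70.2, 74.8 and 76.6 FPKM in OIR WT, with a log2 change of -0.23 (SE 0.12, adjusted p = 0.600, limma). Ndufa4l2 had a log2 change of -0.36 between the genotypes (SE 0.20, adjusted p = 0.605, 95% interval -0.80 to 0.08, limma). OIR KO 1 (117 FPKM) and OIR KO 3 (83.1 FPKM) lay below every OIR WT library for this gene, and OIR KO 2 (135 FPKM) lay within the OIR WT range. Cox4i2 was lower in each OIR KO library than in each OIR WT library, with a log2 change of -0.30 (SE 0.16, adjusted p = 0.606, 95% interval -0.66 to 0.07, limma). For mt-Nd2 and Cox6b2 the log2 changes were 0.13 (adjusted p = 0.829, limma) and 0.09 (adjusted p = 0.882, limma). For these genes the intervals leave room for changes of either sign, so the genotypes are not shown to be alike.

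OIR KO against RA WT sets both genotype and treatment apart and shares its RA WT libraries with the comparison of OIR WT against RA WT. One of the 100 tested members was called: Ndufa4l2 rose 19.0-fold, with a log2 change of 4.25 (SE 0.20, adjusted p = 3.0e-05, limma). Over all genes, 10.4% were called, 4.75% as higher and 5.69% as lower. The median change of the members was -0.13, against 0.02 over all genes, and 88 of 100 lay below 0, against 45.9% of all genes. The median was -0.07 without OIR KO 2 (77 below 0) and -0.08 without RA WT 2 (66 below 0). Groups did not overlap for 2 members that were higher and 12 that were lower in OIR KO, against 32.7% of all genes (17.3% higher and 15.4% lower). The intervals lay within 1 log2 unit of 0 for 98 members and within 0.5 for 73. The count of 1 was 3 without OIR KO 1 (with Cox6b2 and Atp5k) or without RA WT 1 (with Cox6b2 and Atp5e), and 2 without RA WT 3 (with mt-Nd2).

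By complex, the median change of nuclear subunits in OIR KO against RA WT was -0.13 for complex I, -0.01 for complex II, -0.13 for complex III, -0.18 for complex IV and -0.15 for complex V. In OIR WT against RA WT the same medians were -0.09, -0.09, -0.09, -0.12 and -0.12. The mitochondrial median was -0.07 in OIR KO against RA WT, and leaving out RA WT 2 gave 0.10, RA WT 3 gave -0.28, OIR KO 1 gave -0.11 and OIR KO 3 gave -0.04. Cox6b2 of complex IV came closest to the threshold, with a log2 change of -0.47 (SE 0.14, adjusted p = 0.0592, limma), and it was called without OIR KO 1 (adjusted p = 0.0426) or RA WT 1 (adjusted p = 0.0454), over a range of 0.0426 to 0.187. Sdha changed by -0.22 (SE 0.09, adjusted p = 0.154, limma), Uqcrfs1 by -0.19 (SE 0.09, adjusted p = 0.206, limma) and Atp5f1, the peripheral stalk subunit b, by -0.29 (SE 0.12, adjusted p = 0.145, limma). Cox4i2 was 0.33 above RA WT (adjusted p = 0.226) and mt-Nd2 0.41 below it on the log2 scale (log2 change -0.41, adjusted p = 0.0996, limma).

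Related genes outside the complexes were counted from lists. Of 51 assembly factors, 2 rose and 1 fell in OIR WT against RA WT, which called 8.04% of all genes as higher and 7.92% as lower. Higd1a, a hypoxia-induced partner of complex IV, averaged 37.8 ± 4.63 FPKM in OIR KO, 55.9 ± 6.63 FPKM in OIR WT and 29.0 ± 3.67 FPKM in RA WT (log2 0.94, adjusted p = 0.00281 for OIR WT against RA WT, limma). Ndufaf6, which acts in complex I assembly, also rose in OIR WT (log2 0.90, adjusted p = 0.0151), and Higd2a, a homolog of Higd1a, fell (log2 -0.42, adjusted p = 0.0386, limma). Cyc1, which encodes cytochrome c1 of complex III and is not reached by the symbol rule, fell, averaging 70.3 ± 8.52 FPKM in OIR WT and 88.4 ± 2.94 FPKM in RA WT (log2 -0.33, adjusted p = 0.0386, limma). It was the only one of 3 tested cytochrome c genes that was called. No assembly factor and no cytochrome gene was called in the 2 comparisons of OIR KO. These called 10.4% of all genes against RA WT and 0.134% against OIR WT.

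The steps that feed the complexes were called in both directions. Of 15 tested genes of pyruvate entry and lactate, 4 rose and 3 fell in OIR WT against RA WT. Of all genes, 8.04% were called as higher and 7.92% as lower there. Slc16a3, the lactate exporter MCT4, averaged 33.9 ± 7.90 FPKM in OIR KO, 71.6 ± 15.95 FPKM in OIR WT and 24.4 ± 2.36 FPKM in RA WT (log2 1.51, adjusted p = 0.00185 for OIR WT against RA WT, limma). Pdk1, which inhibits pyruvate dehydrogenase, averaged 15.5 ± 3.27, 28.8 ± 2.54 and 14.0 ± 1.44 FPKM in those groups (log2 1.01, adjusted p = 0.00312, limma). Ldhb, the lactate dehydrogenase subunit of oxidative tissue, fell in OIR WT (log2 -0.64, adjusted p = 0.0151) and in OIR KO (log2 -0.65, adjusted p = 0.0192) against RA WT (limma), and Pdp1, which reactivates pyruvate dehydrogenase, fell in OIR WT (log2 -0.43, adjusted p = 0.0284, limma). Of 17 genes of the tricarboxylic acid cycle, 1 fell in each comparison with RA WT, Ogdh in OIR WT (log2 -0.36, adjusted p = 0.0300, limma) and Idh3a in OIR KO (log2 -0.35, adjusted p = 0.0264, limma). The share of all genes called as lower was 7.92% in OIR WT and 5.69% in OIR KO.

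Of 16 genes of mitochondrial dynamics and mitophagy, 2 rose and 3 fell in OIR WT against RA WT, where 8.04% of all genes were called as higher and 7.92% as lower. Bnip3, a hypoxia-induced mitophagy receptor, was at 81.4, 118 and 83.5 FPKM in OIR KO and 178, 172 and 202 FPKM in OIR WT. In RA WT it was at 64.1, 65.4 and 68.5 FPKM. The 3 groups did not overlap. It was the only gene of these 6 lists called between the genotypes (log2 -0.98, SE 0.14, adjusted p = 0.0377, limma), and it was also higher in OIR WT (log2 1.47, adjusted p = 0.000511) and in OIR KO (log2 0.49, adjusted p = 0.0498) than in RA WT (limma). Bnip3l rose in OIR WT (log2 0.63, adjusted p = 0.00538), and the fusion gene Mfn2 (log2 -1.02, adjusted p = 0.00489) and Fis1 (log2 -0.48, adjusted p = 0.0151) fell (limma). Of 25 tested genes of mitochondrial biogenesis and transcription, Slirp, which binds mitochondrial mRNAs, was the only one called in any comparison, and it rose in OIR WT against RA WT (log2 0.40, adjusted p = 0.0196, limma).

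Markers of retinal cells moved as well in OIR WT against RA WT. None of the 5 rod markers was called. Of 3 markers each, 2 fell for Müller glia, 3 for bipolar cells, 2 for amacrine cells and 1 for ganglion cells, and all 5 erythrocyte genes rose. Among all genes, 7.92% were called as lower and 8.04% as higher. In OIR KO against RA WT, 2 amacrine and 1 ganglion cell marker fell, where 5.69% of all genes were called as lower. The pigment epithelium list, summed over 5 genes with Rlbp1 shared with Müller glia, reached 172 to 265 FPKM in OIR KO, 124 to 218 FPKM in OIR WT and 269 to 343 FPKM in RA WT. In OIR KO against OIR WT, no gene of these marker lists was called. The part of other cells in the small changes of the oxidative phosphorylation genes was not tested.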

How the data were processed

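Retinal RNA libraries were made with an NEBNext Ultra kit after Trizol extraction, per the labels' protocols. HISAT2 and GRCm38 were used, per the submitters' processing notes; quantifier, annotation release and strand setting: not given in the sources used here. All values come from 1 table in FPKM, deposited by the authors. From it, log2(FPKM + 0.5) of 15678 genes at 0.5 FPKM or more in at least 3 of 9 libraries was fitted with limma 3.58.1 (R 4.3.3) as 1 mean per group, with trend and robust moderation, two-sided, and adjusted over all genes tested. An added 0.5 understates changes of low genes. Sums and medians over members have no test. Positions come from GENCODE M21 (GRCm38), promoters from RefSeq, copies from blastn 2.17.0. The members, lists and tests were chosen with earlier results of these data known. Named genes are the 13 mitochondrial members, 6 isoform pairs with Cox7a2l, all called members, else the smallest p per complex and comparison, core subunits, and from each list up to 2 risen and 2 fallen called genes. Ndufa11 was added as the largest fall among nuclear members counted as complex I. Same-numbered libraries were checked for pairing, and alternatives covered pseudocount, filter, scaling, model, covariate and each library left out.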

Additional observations from a re-analysis of the deposited data

How the results depend on the processing

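In OIR WT against RA WT, the count of 5 called members was 8 with medians set equal (with mt-Nd1, Cox8b and Ndufa11 added), 2 with a replicate block (Cox4i2, Cox6b2 and Uqcrfs1 lost), 3 with a covariate of Y-linked genes (Uqcrfs1 and mt-Nd2 lost), and 1 to 8 when each library was left out in turn. Uqcrfs1 was also lost with no filter, in the fit over 2 groups and with no trend or robust option, and mt-Nd2 with quantile normalization. Some settings also added members. The count was 7 with quantile normalization (Atp5g3, Cox8b and Ndufa11 added) and 7 when rescaled without mitochondrial genes (Cox8b and Ndufa11 added). It was 6 in the fit over 2 groups (Atp5k and Ndufa11 added). In OIR KO against RA WT, the count of 1 was 2 with quantile normalization (Cox8a added), 2 with the Y-linked covariate (Cox6b2 added), and 1 to 3 when a library was left out. The count of 0 between the genotypes held under every alternative run. The replicate block counts only libraries that share a number: deviations of same-numbered libraries correlated at -0.353 to 0.134, so the numbers do not pair them. Its calls in the other 2 comparisons were 0 and 1, as without it.

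The change of Cox6b2 between the genotypes was -0.0096 with the Y-linked covariate and ran between -0.0395 and 0.2049 without a library. With a pseudocount of 0.1 the log2 ratio of Cox7a1 to Cox7a2 in OIR WT against RA WT was -0.0003 and that of Cox8b to Cox8a in OIR KO against RA WT -0.0104. Without a library, the ratio of Cox7a1 to Cox7a2 ran between -0.2533 and 0.3097 (OIR WT against RA WT), -0.4485 and 0.1145 (OIR KO against OIR WT) and -0.3081 and 0.0365 (OIR KO against RA WT), and that of Cox8b to Cox8a between -0.1846 and 0.2262 (OIR KO against RA WT). The causes were not tested. The median change of all members kept its sign under all 11 other settings in each comparison, but its size moved. In OIR WT against RA WT it was -0.16 with medians set equal (86 below 0) and -0.07 with the Y-linked covariate (69 below 0). Between the genotypes it was -0.0012 (50 below 0) and -0.07 (74 below 0) in those fits. The mitochondrial median was -0.02 between the genotypes with the Y-linked covariate and 0 in OIR KO against RA WT with quantile normalization. In OIR WT against RA WT, both settings left 8 of the 13 mitochondrial genes below 0. Depth is unknown, and FPKM without counts gives no counting error.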
